A study of Mus musculus with 16 samples.

Results

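The autophagy machinery genes described here are 36 mouse genes chosen by symbol, from the kinase that starts autophagosome formation to the receptors that carry cargo into the vesicle. All 36 were rows of the raw counts table, which holds 24421 genes, and all 36 had enough counts to be tested. The counts come from bulk RNA sequencing of 16 libraries of conventional type 1 dendritic cells (cDC1s), which cross-present antigen to CD8 T cells, sorted from the spleens of C57BL6 mice at steady state. The groups are mature cDC1s of Xbp1flIre1fl mice, immature cDC1s of Xbp1flIre1fl mice, mature cDC1s of Xbp1fl mice and immature cDC1s of Xbp1fl mice, with 4 libraries each. Per the labels, the alleles of Xbp1, or of Xbp1 and the gene for IRE1, are floxed in these mice but not deleted, so that every group counts as functionally wild type. The sort gates and the ages of the mice are not given in the sources used here, and the labels do not say whether libraries of 1 group come from separate mice, so the p-values rest on the spread between libraries, which may be technical.

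Autophagy delivers cytoplasm and organelles to the lysosome inside a double-membraned vesicle, the autophagosome. The ULK1 kinase complex starts the process, the class III PI3-kinase complex marks the membrane with PI3P, PI3P readers and lipid transporters let the membrane grow, and a pair of ubiquitin-like conjugation systems attach the ATG8 proteins (LC3 and GABARAP) to it. Cargo receptors such as p62 bind ubiquitinated material on one side and ATG8 proteins on the other. In dendritic cells the pathway and parts of its machinery are also known for their use in antigen presentation.

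Mature were compared with immature cDC1s to ask which of these genes change as the cells mature without infection. The cargo receptor genes Sqstm1 and Optn and the ATG8 gene Gabarapl1 were the members that rose over 2-fold, by 5.46-fold, 4.77-fold and 3.64-fold, and no member fell over 2-fold. Among the other members, Ulk1 and Uvrag rose by 1.86-fold and 1.66-fold, while Atg2b and Atg3 fell by 1.34-fold and 1.19-fold. In all, 20 of the 36 members rose, 3 fell and 13 did not pass the test (edgeR quasi-likelihood F-test, Benjamini-Hochberg adjusted p under 0.05 over 11978 genes, mean of both genotypes). Of all genes tested, 33.4% rose and 34.2% fell by the same rule. The members' median log2 fold change was 0.19, against -0.01 over all genes tested. Changes of the members were mostly small: their median absolute log2 fold change was 0.22, against 0.37 over all genes tested. The 3 members above 2-fold stand beside 12.3% of all genes that rose and 1.45% that fell by over 2-fold. In 14 members no mature library overlapped any immature library, beside 33% of all genes tested.

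**Figure D1:**
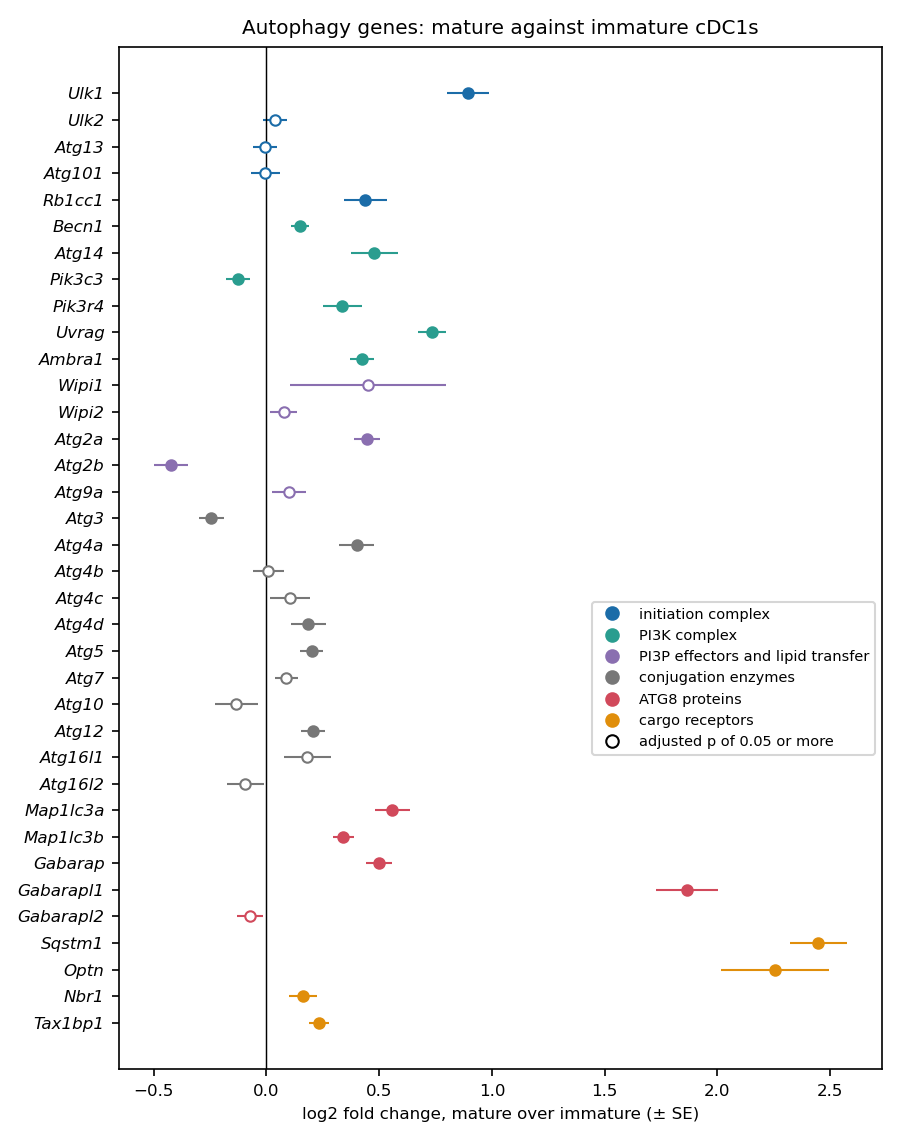
Log2 fold change of each of the 36 members in mature over immature cDC1s (mean of both genotypes), with bars of 1 SE, coloured by role. Open points did not pass the test. Sqstm1, Optn and Gabarapl1 lie far to the right, and Pik3c3, Atg2b and Atg3 are the filled points left of 0.

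Levels are given below as CPM (each library's counts scaled to a common total, after TMM scaling), and each ± on a level is the SD over the 8 libraries of a stage. Log2 fold changes carry an SE. The calls near 0 depended on how the libraries were scaled. Scaling by upper quartiles or by library sizes only, in place of TMM, moved the median of all genes to -0.13 and -0.23, and the members' medians to 0.07 and -0.03. Relative to all genes, the members' median was higher by 0.20 with each of these scalings. A scaling shifts all genes nearly alike, so it could hardly change this difference. It was 0.13 with no filter on low counts and 0.15 with DESeq2. With library sizes only, 13 members rose and 12 fell, where 22.7% of all genes tested rose and 50.9% fell. With upper quartiles, 15 members rose and 7 fell, where 26.8% of all genes tested rose and 43.7% fell. Between scalings 14 members changed sign, none of them with a log2 fold change above 0.21 under TMM. Under all 4 scalings tried, 13 members rose (Ulk1, Rb1cc1, Atg14, Uvrag, Ambra1, Atg2a, Atg4a, Map1lc3a, Map1lc3b, Gabarap, Gabarapl1, Sqstm1 and Optn) and 2 fell (Atg2b and Atg3).

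**Figure D2:**
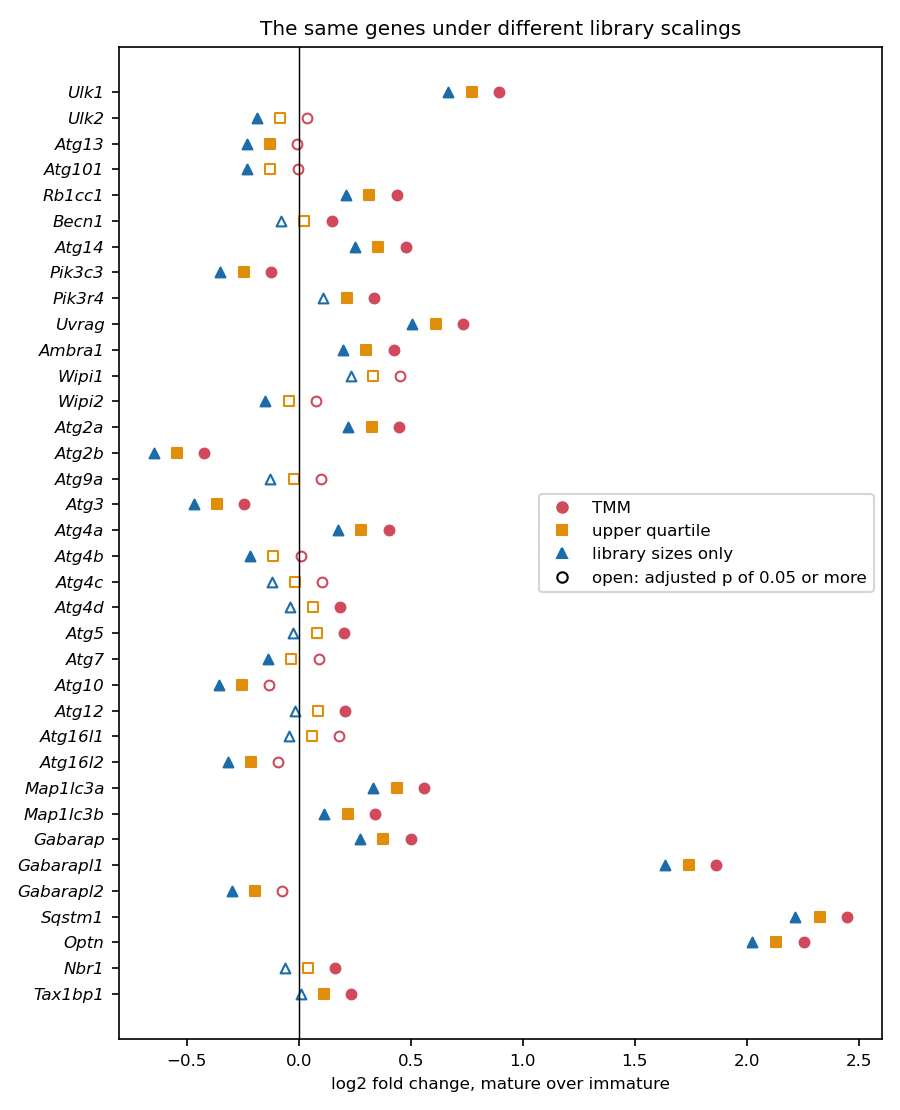
Log2 fold change of each member, mature over immature, under TMM (circles), upper quartile (squares) and library size scaling (triangles). Open symbols did not pass the test. Each row keeps its spacing while moving left, so that members near 0 change sign, whereas Sqstm1, Optn and Gabarapl1 remain far to the right.

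Libraries held 13948232 to 16572576 counts for mature and 15083053 to 17000763 counts for immature cells. The maturation marker Ccr7, a chemokine receptor for homing to T cell areas, was at 9402 ± 2859 CPM in mature, against 177 ± 72.3 CPM in immature libraries. The cDC1 marker Xcr1 was at 572 ± 102 CPM in mature, against 782 ± 51.7 CPM in immature libraries, and the floxed gene Xbp1 was expressed in both stages (83.3 ± 8.43 CPM in mature, 114 ± 11.5 CPM in immature libraries). Of 8 cDC1 identity markers 5 fell and 1 rose. Marker genes of other cells moved with the stage too, in both directions. The summed level of 10 B cell markers was 310 to 1068 CPM in mature, against 104 to 163 CPM in immature libraries, and all 10 rose. The summed level of 11 macrophage markers was 595 to 1243 CPM in mature, against 175 to 702 CPM in immature libraries, with 8 higher, and that of 9 cDC2 markers 344 to 498 CPM in mature, against 231 to 271 CPM in immature libraries, with 5 of 8 tested higher. The summed level of 6 T cell markers was 23.5 to 48.0 CPM in mature, against 14.3 to 35.0 CPM in immature libraries, with 4 higher. That of 6 NK cell markers was 61.8 to 106 CPM in mature, against 116 to 164.5 CPM in immature libraries, with 0 higher and 1 lower. Of the plasmacytoid dendritic cell markers 1 rose and 1 fell, likewise of the neutrophil markers, and 0 erythroid markers passed. Within Xbp1flIre1fl mice 10 of the 11 macrophage markers were higher (595 to 1243 CPM in mature, 255 to 340 CPM in immature libraries). Within Xbp1fl mice 3 of 11 were higher (696 to 838 CPM in mature, 175 to 702 CPM in immature libraries). There the immature libraries of replicates 1 to 4 had 391, 264, 175 and 702 CPM, so only replicate 4 reached the mature range. All 11 differences between the genotypes' maturation effects (Xbp1flIre1fl minus Xbp1fl) were above 0, at 0.41 to 1.66 on the log2 scale. The 11 markers' log2 fold changes of Xbp1flIre1fl over Xbp1fl were -0.82 to -0.12 in immature and 0.10 to 1.06 in mature libraries. In either stage 0 of them passed (edgeR). As an interaction 0 of the 11 passed (edgeR), and the 11 come from the same libraries, so they are not independent results. No marker of these lists was at 0 in either stage, other than 1 erythroid marker at 0 in both. The part of other cells in the members' changes was not tested. In bulk samples a different number of cells of a type and a different amount of RNA per cell cannot be told apart.

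All 4 cargo receptor genes rose (median log2 fold change 1.24, and 1.02 with library sizes only, where Sqstm1 and Optn alone still passed the test). Sqstm1 encodes p62, which binds ubiquitin chains and LC3 and is itself degraded by autophagy. It was at 2687, 1894, 3198 and 1528 CPM in the 4 mature Xbp1flIre1fl libraries and at 2516, 2361, 3001 and 2715 CPM in the mature Xbp1fl libraries. The immature Xbp1flIre1fl libraries had 452, 429.6, 508 and 408 CPM and the immature Xbp1fl libraries 494, 403, 509.6 and 436 CPM. Every mature library lay far above every immature one, and the lowest mature values were replicates 4 and 2 of Xbp1flIre1fl. The means were 2487 ± 554 CPM in mature, against 455 ± 43.6 CPM in immature libraries, a log2 fold change of 2.45 ± 0.13 (edgeR adjusted p = 1.25e-10).

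Optn encodes optineurin, a receptor for damaged mitochondria and intracellular bacteria that TBK1 phosphorylates. It had 9.29, 8.04, 14.9 and 4.85 CPM in mature Xbp1flIre1fl and 9.75, 8.77, 10.1 and 10.4 CPM in mature Xbp1fl libraries. Immature libraries had 1.74, 2.02, 3.11 and 1.45 CPM in Xbp1flIre1fl and 1.02, 1.51, 1.77 and 3.23 CPM in Xbp1fl mice, so the stages did not overlap, although the lowest immature library held only 18 counts. Optn averaged 9.51 ± 2.79 CPM in mature, against 1.98 ± 0.788 CPM in immature libraries (log2 fold change 2.25 ± 0.24, edgeR adjusted p = 3.40e-07).

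The other two receptors changed less. Tax1bp1, which recognises ubiquitinated aggregates and bacteria, was at 220.5 to 254 CPM (median 242) in mature, against 186 to 213 CPM (median 203) in immature libraries, without overlap, with a log2 fold change of 0.23 ± 0.04 (edgeR adjusted p = 1.31e-04). Nbr1, a p62 partner that is also a receptor for peroxisomes, was at 69.8 to 93.9 CPM (median 82.5) in mature, against 63.3 to 82.0 CPM (median 72.7) in immature libraries, which overlapped. Its log2 fold change of 0.16 ± 0.06 passed the test (edgeR adjusted p = 0.0319) but did not in 8 of the 16 fits that each left out 1 library (adjusted p = 0.0549 to 0.0838).

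Per kb of exon, Sqstm1 had the highest level of all members in mature cells (881 ± 196 CPM per kb) and the second place in immature cells (161 ± 15.4), behind Gabarap. Sqstm1 made up 90.2 ± 2.00% of the summed CPM per kb of the 4 receptor genes in mature, against 67.7 ± 2.01% in immature libraries. Tax1bp1 made up 7.79 ± 1.68% in mature, against 26.1 ± 1.56% in immature libraries, although its own level was slightly higher in mature cells. Optn made up at most 0.546% of the sum in any library, and had the second lowest immature level per kb among the members.

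The promoters of the called members with the largest rise that hold a searched motif are shown here, 250 bases before to 50 bases after the RefSeq start site (GRCm38.p6), 5′ to 3′ on the gene's strand, with the motif matches in capitals. Sqstm1 lies at chr11:50210771-50211070 on the minus strand, Atg14 at chr14:47568385-47568684 on the minus strand and Map1lc3b at chr8:121590188-121590487 on the plus strand.
Sqstm1: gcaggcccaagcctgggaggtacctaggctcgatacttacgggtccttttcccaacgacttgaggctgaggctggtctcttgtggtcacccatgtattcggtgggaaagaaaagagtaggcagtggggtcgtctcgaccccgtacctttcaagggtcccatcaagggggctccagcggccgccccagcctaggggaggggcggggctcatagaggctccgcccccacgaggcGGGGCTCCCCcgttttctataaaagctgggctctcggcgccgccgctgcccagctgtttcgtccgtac
Atg14: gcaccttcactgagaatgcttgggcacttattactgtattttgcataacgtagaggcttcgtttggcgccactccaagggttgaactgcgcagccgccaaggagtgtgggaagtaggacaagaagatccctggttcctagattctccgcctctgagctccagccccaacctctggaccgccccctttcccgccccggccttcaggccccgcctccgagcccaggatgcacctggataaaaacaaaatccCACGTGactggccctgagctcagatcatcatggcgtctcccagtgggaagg
Map1lc3b: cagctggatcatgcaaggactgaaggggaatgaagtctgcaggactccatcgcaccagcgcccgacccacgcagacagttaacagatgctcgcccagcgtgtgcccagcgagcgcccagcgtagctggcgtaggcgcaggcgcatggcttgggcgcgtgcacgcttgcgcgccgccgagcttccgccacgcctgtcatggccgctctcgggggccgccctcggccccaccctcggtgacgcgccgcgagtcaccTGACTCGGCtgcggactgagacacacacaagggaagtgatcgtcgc
The capitals mark an NF-kB consensus match starting 18 bases before the start site in Sqstm1, the E-box CACGTG starting 1 base before it in Atg14, and an antioxidant response core TGACNNNGC starting 4 bases after it in Map1lc3b. Of 36 members 30 had a promoter in the RefSeq table, some of them several. A member is counted below if any of its promoters holds the motif, whereas the shares are of single promoters. The 5 motifs searched on both strands were CACGTG, which TFEB and other helix-loop-helix factors can bind, its longer form TCACGTGA, the NRF2 core TGACNNNGC, the NF-kB consensus and the CRE TGACGTCA. CACGTG stood in 4 members' promoters (Atg14, Atg3, Atg5 and Atg7) and in 7.15% of all 32817 promoters of the table, and TCACGTGA, which contains it, in 1 member (Atg3) and in 0.975% of all. TGACNNNGC stood in 4 members (Atg13, Map1lc3b, Tax1bp1 and Ulk2) and in 12.4% of all. The NF-kB consensus stood in 3 members (Atg16l2, Sqstm1 and Tax1bp1) and in 5.8% of all, and TGACGTCA in 2 members (Atg16l2 and Atg5) and in 1.79% of all. Gabarapl1, Optn, Ulk1, Uvrag, Gabarap, Atg2a, Ambra1 and Atg4a, which all rose more than Map1lc3b, held none of these letters in the window. Map1lc3a and Rb1cc1, which also rose more, had no promoter in the table. Among the members with CACGTG, Atg14 and Atg5 rose, Atg3 fell and Atg7 did not pass.

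Of the 5 ATG8 genes, 4 rose and Gabarapl2 missed the threshold (the median log2 fold change was 0.50, and 0.27 with library sizes only, where the same 4 rose and Gabarapl2 fell). Gabarapl1, which encodes a GABARAP-type ATG8 protein, had 100.1, 63.6, 97.0 and 50.6 CPM in mature Xbp1flIre1fl and 87.6, 81.6, 99.5 and 93.2 CPM in mature Xbp1fl libraries. Immature libraries had 28.8, 27.2, 23.5 and 17.0 CPM in Xbp1flIre1fl and 23.5, 20.8, 21.0 and 22.9 CPM in Xbp1fl mice. The stages did not overlap, and as for Sqstm1 the lowest mature values were replicates 4 and 2 of Xbp1flIre1fl. The mean was 84.2 ± 18.1 CPM in mature, against 23.1 ± 3.71 CPM in immature libraries (log2 fold change 1.86 ± 0.14, edgeR adjusted p = 8.43e-09).

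Those 2 libraries were also the mature ones with the least Ccr7. Without them, an alternative chosen after seeing the data, 20 members rose and 3 fell, and they were the same 23 genes.

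Gabarap, the most abundant ATG8 gene, was at 388 to 486 CPM (median 439) in mature, against 271 to 337 CPM (median 313) in immature libraries, without overlap. Its log2 fold change was 0.50 ± 0.06 (edgeR adjusted p = 4.67e-07). Of the LC3 genes, Map1lc3b, the form most used to follow autophagosomes, was at 145 to 188 CPM in mature, against 126 to 136 CPM in immature libraries (0.34 ± 0.05, adjusted p = 4.28e-06), and Map1lc3a at 16.4 to 24.1 CPM in mature, against 11.9 to 16.02 CPM in immature libraries (0.56 ± 0.08, adjusted p = 6.08e-06). Neither overlapped between the stages. Gabarapl2, also called GATE-16, was at 121 to 163 CPM in mature, against 130 to 154 CPM in immature libraries, which overlapped (log2 fold change -0.07 ± 0.06, edgeR adjusted p = 0.269). It was called lower with upper quartiles (-0.19, edgeR adjusted p = 0.00616) and with library sizes only (-0.30, edgeR adjusted p = 9.79e-05). Under TMM it was called lower without Xbp1flIre1fl mature replicate 2, at -0.12 (adjusted p = 0.0286).

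The shares of the members within the ATG8 family are given as a description, with no test. Per kb of exon, Gabarap held 64.6 ± 1.41% of the summed ATG8 level in mature, against 62.8 ± 0.998% in immature libraries. Gabarapl1 held 6.47 to 10.9% in mature, against 2.89 to 4.09% in immature libraries. Gabarapl2 held 14.7 to 19.02% in mature, against 22.3 to 24.7% in immature libraries, so for both genes the stages did not overlap. The LC3 genes together stayed the smaller portion, with Map1lc3b at 6.34 ± 0.204% in mature, against 6.89 ± 0.384% in immature libraries. In the annotation 3 processed pseudogenes match Gabarapl2 at 96.6 to 99.4% identity, none of them with a row of its symbol in the counts table. How the authors counted reads that fit more than 1 place is not given in the sources used here, so the Gabarapl2 level is uncertain to that extent.

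**Figure D3:**
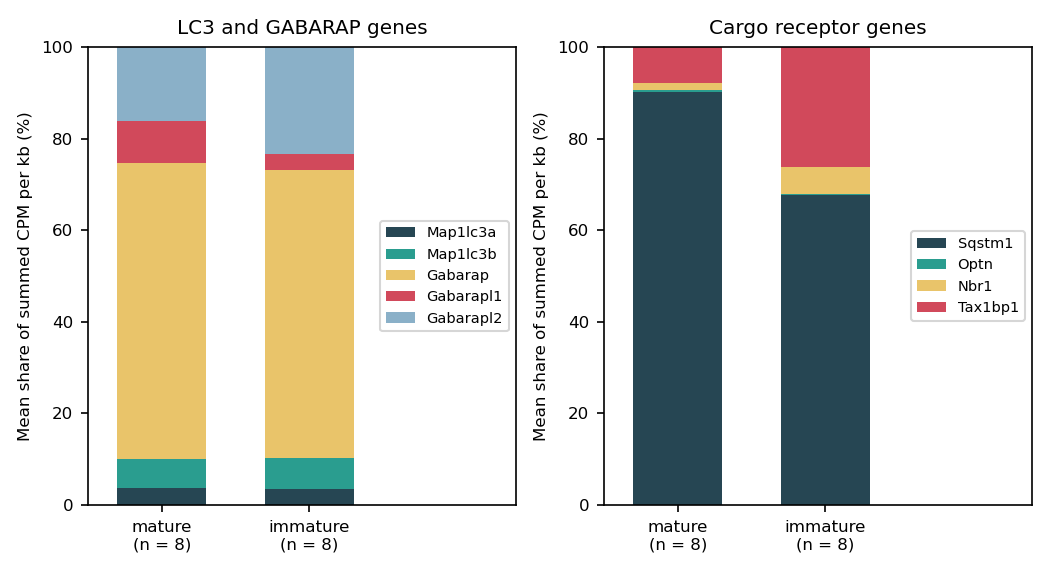
Stacked mean shares (%) of each gene in the summed CPM per kb of exon of the ATG8 genes (left) and the cargo receptor genes (right), in mature and immature libraries (n = 8 each). The Gabarapl1 band is wider in mature cells (9.15% against 3.45%), and Sqstm1 fills 90.2% of the receptor bar in mature against 67.7% in immature cells.

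The conjugation enzymes, which process ATG8 proteins and join them to the membrane lipid, moved in both directions. Of 11 genes, Atg3 fell, 4 rose and 6 missed the threshold (the median log2 fold change was 0.10, which turned to -0.12 with library sizes only, where 1 rose and 5 fell). Atg3, the E2-like enzyme that transfers ATG8 to the lipid, had 121, 142, 101 and 119 CPM in mature Xbp1flIre1fl and 132, 131, 122 and 126 CPM in mature Xbp1fl libraries. Immature libraries had 146, 147, 142 and 149 CPM in Xbp1flIre1fl and 157, 152, 142 and 142 CPM in Xbp1fl mice. The highest mature library lay just below the lowest immature one. The log2 fold change was -0.25 ± 0.06 (edgeR adjusted p = 7.15e-04).

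Atg4a, one of the proteases that trims ATG8 proteins and frees them from the membrane, was at 13.7 to 18.7 CPM in mature, against 10.5 to 13.4 CPM in immature libraries, without overlap (log2 fold change 0.40 ± 0.08, edgeR adjusted p = 1.90e-04). A near-copy of its transcript, Atg4a-ps, matches it at 99.3% over 2115 bases, but had no row of that symbol in the counts table. How reads that fit both were counted is not given in the sources used here, so the Atg4a level is uncertain to that extent. Atg4d, another such protease, changed by 0.19 ± 0.08 (adjusted p = 0.0445), and lost its call in 11 of those 16 fits (0.0527 to 0.102). Atg4b and Atg4c did not pass, at 0.01 ± 0.07 and 0.10 ± 0.09, but Atg4b turned to -0.22 and passed with library sizes only (edgeR adjusted p = 0.0104).

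Atg5 and Atg12, which are joined to one another and act with ATG16L1 as the E3-like complex, changed by 0.20 ± 0.05 and 0.21 ± 0.05 (edgeR adjusted p = 0.00184 and 0.00185). Both had overlapping stages and turned to -0.02 with library sizes only. Atg7, the E1-like enzyme that activates both systems, was at 36.7 to 44.4 CPM in mature, against 36.3 to 40.5 CPM in immature libraries and did not pass (0.09 ± 0.05, adjusted p = 0.130), but turned to -0.14 and passed with library sizes only (adjusted p = 0.0195). Atg10, the E2-like enzyme for ATG12, and the scaffold genes Atg16l1 and Atg16l2 did not pass either, at -0.13 ± 0.09, 0.18 ± 0.10 and -0.09 ± 0.08. Atg10 and Atg16l2 passed as lower with upper quartiles and with library sizes only (-0.36 and -0.32 with library sizes only). Atg3 was the most abundant of the 11 per kb of exon (60.5 ± 5.75 CPM per kb in mature, 71.6 ± 2.65 in immature libraries).

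Among the PI3P readers and lipid transfer genes, the 2 genes for ATG2, the protein that moves lipid into the growing membrane, went opposite ways. Atg2a was at 67.8 to 88.4 CPM (median 76.1) in mature, against 51.4 to 61.6 CPM (median 54.4) in immature libraries, a log2 fold change of 0.45 ± 0.06 (edgeR adjusted p = 1.65e-06). Atg2b had 31.6, 27.5, 19.9 and 28.5 CPM in mature Xbp1flIre1fl and 26.4, 30.4, 27.9 and 33.2 CPM in mature Xbp1fl libraries. In immature libraries it had 39.4, 36.8, 39.3 and 42.7 CPM in Xbp1flIre1fl and 36.9, 36.1, 35.8 and 35.5 CPM in Xbp1fl mice.

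Neither ATG2 gene overlapped between the stages, and Atg2b fell by 0.42 on the log2 scale (SE 0.08, edgeR adjusted p = 9.01e-05). Both calls held under all 4 scalings. Per kb of exon, Atg2a made up 76.2 ± 2.60% of the pair in mature, against 63.6 ± 2.69% in immature libraries. The PI3P reader Wipi2 and the lipid scramblase gene Atg9a did not pass (0.08 ± 0.06 and 0.10 ± 0.08), but Wipi2 turned to -0.15 and passed with library sizes only (edgeR adjusted p = 0.0410). Wipi1 was the member with the lowest level, 0.272 to 1.28 CPM in mature, against 0.279 to 0.952 CPM in immature libraries. It had as few as 4 counts in a library, and no difference was detectable at this depth (0.45 ± 0.35, adjusted p = 0.260).

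The PI3-kinase group had 5 genes that rose and 1 that fell (median log2 fold change 0.38, and 0.15 with library sizes only, where 3 rose and 1 fell). Uvrag, which encodes a Beclin 1 partner of the endosomal form of the complex, was at 291 to 402 CPM (median 374) in mature, against 199.7 to 232 CPM (median 222) in immature libraries. The stages did not overlap (log2 fold change 0.73 ± 0.06, edgeR adjusted p = 1.24e-08). Atg14, the subunit that directs the complex to autophagosome formation, averaged 18.4 ± 3.10 CPM in mature, against 13.2 ± 1.64 CPM in immature libraries (0.48 ± 0.11, adjusted p = 5.77e-04), with overlap. Per kb of exon the Uvrag level was 70.5 ± 7.53 CPM per kb in mature, against 42.4 ± 2.02 CPM per kb in immature libraries. The Atg14 level was far lower, at 4.93 ± 0.831 CPM per kb in mature, against 3.54 ± 0.440 CPM per kb in immature libraries.

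Ambra1, a Beclin 1 regulator, was at 87.1 to 111 CPM in mature, against 72.0 to 82.0 CPM in immature libraries without overlap (0.42 ± 0.06, edgeR adjusted p = 2.14e-06). Pik3r4, the VPS15 regulatory subunit, changed by 0.34 ± 0.09 (adjusted p = 0.00187), and Becn1, which encodes Beclin 1, by 0.15 ± 0.04 (adjusted p = 0.00359), turning to -0.08 with library sizes only. Pik3c3, the VPS34 catalytic subunit itself, was at 31.5 to 37.6 CPM in mature, against 35.5 to 42.1 CPM in immature libraries and changed by -0.13 ± 0.05 (adjusted p = 0.0429). Its call was lost with RLE size factors (adjusted p = 0.0692), with DESeq2 (0.0763), with limma on the authors' log2 table (0.0524) and with the replicate number as a block (0.0518), and in 10 of the 16 fits that each left out 1 library (0.0541 to 0.0904).

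In the ULK1 initiation complex, Ulk1 and Rb1cc1 rose and the other 3 genes missed the threshold (the median log2 fold change was 0.04, which turned to -0.19 with library sizes only). Ulk1, the kinase itself, had 28.2, 20.8, 28.8 and 21.9 CPM in mature Xbp1flIre1fl and 29.4, 23.0, 32.2 and 27.1 CPM in mature Xbp1fl libraries. Immature libraries had 15.8, 13.5, 15.8 and 15.0 CPM in Xbp1flIre1fl and 12.02, 15.9, 12.3 and 13.3 CPM in Xbp1fl mice. The stages did not overlap, and the log2 fold change was 0.90 ± 0.09 (edgeR adjusted p = 1.49e-07).

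Its relative Ulk2 was at 38.7 to 45.1 CPM in mature, against 37.1 to 45.4 CPM in immature libraries (0.04 ± 0.05, edgeR adjusted p = 0.549), and turned to -0.19 with library sizes only, where it passed as lower in mature libraries (edgeR adjusted p = 0.00834). Per kb of exon, Ulk1 made up 40.6 ± 3.604% of the pair in mature, against 27.5 ± 2.58% in immature libraries, so Ulk2 remained the more abundant in both stages. Rb1cc1, which encodes the scaffold FIP200, was at 40.7 to 70.6 CPM in mature, against 32.4 to 43.1 CPM in immature libraries, with overlap (0.44 ± 0.10, adjusted p = 5.46e-04). Atg13 and Atg101, the adaptor subunits, stood at -0.01 ± 0.05 and -0.01 ± 0.06 under TMM (edgeR adjusted p = 0.918 and 0.952). With library sizes only both stood at -0.23 and passed the test as lower in mature libraries (edgeR adjusted p = 0.0028 and 0.00425). Atg13 also passed as lower with upper quartiles (-0.13, edgeR adjusted p = 0.0493).

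**Figure D4:**
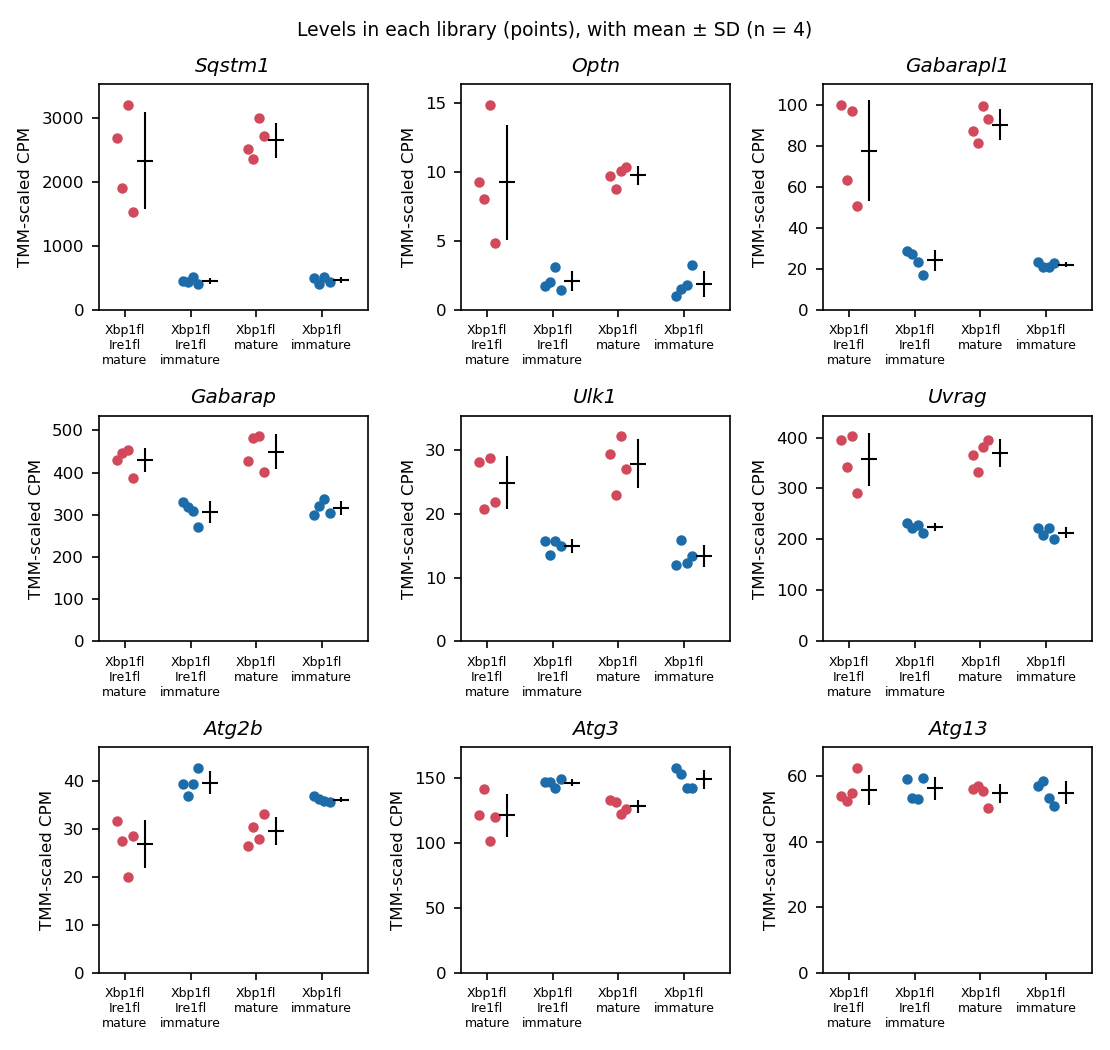
TMM-scaled CPM of 9 members in each library (points; mature red, immature blue), with the mean and SD of each group of 4 beside them and each axis starting at 0. Mature and immature points are apart in every panel other than Atg13, and 2 mature Xbp1flIre1fl libraries lie low for Sqstm1 and Gabarapl1.

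Each genotype was also tested on its own. Within Xbp1flIre1fl mice 17 members rose and 2 fell, where 27.4% of all genes tested rose and 26.1% fell. Within Xbp1fl mice 18 members rose and 2 fell, where 28.4% of all genes rose and 28.3% fell. The log2 fold change of Sqstm1 was 2.37 ± 0.18 in Xbp1flIre1fl and 2.52 ± 0.18 in Xbp1fl mice, that of Gabarapl1 1.69 ± 0.20 in Xbp1flIre1fl and 2.04 ± 0.20 in Xbp1fl mice, and that of Ulk1 0.73 ± 0.13 in Xbp1flIre1fl and 1.06 ± 0.13 in Xbp1fl mice. The replicate block kept these counts, with Pik3r4 in place of Rb1cc1 in Xbp1fl mice. The log2 fold change of Atg2b was -0.56 ± 0.11 in Xbp1flIre1fl and -0.29 ± 0.11 in Xbp1fl mice. Atg2b and Atg3 were the 2 members that fell in each genotype. In Xbp1fl mice neither call held without mature replicate 3 or immature replicate 1 or 2, where 0 members fell, and 1 fell without mature replicate 1. In Xbp1flIre1fl mice 4 members fell without mature replicate 2.

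The difference between the genotypes' maturation effects was tested as an interaction. It passed for 0 of the 36 members and 0% of all genes tested (edgeR, with 0 members and 329 of all genes at an unadjusted p under 0.05, and 0 called by DESeq2). The differences, Xbp1flIre1fl minus Xbp1fl, ranged from -0.35 ± 0.27 for Gabarapl1 to 0.16 ± 0.19 for Rb1cc1. Set against each other within a stage, Xbp1flIre1fl and Xbp1fl libraries differed in 0 members in mature cells (0.142% of all genes called, 2 members and 754 of all genes at an unadjusted p under 0.05) and in 0 members in immature cells (0.134% of all genes called, 1 member and 573 of all genes at an unadjusted p under 0.05). DESeq2 called 0 members in either stage. The smallest adjusted p in both stages was that of Atg12, which was lower in Xbp1flIre1fl by similar amounts (-0.23 ± 0.07 in mature, adjusted p = 0.452, and -0.24 ± 0.07 in immature cells, adjusted p = 0.644).

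**Figure D5:**
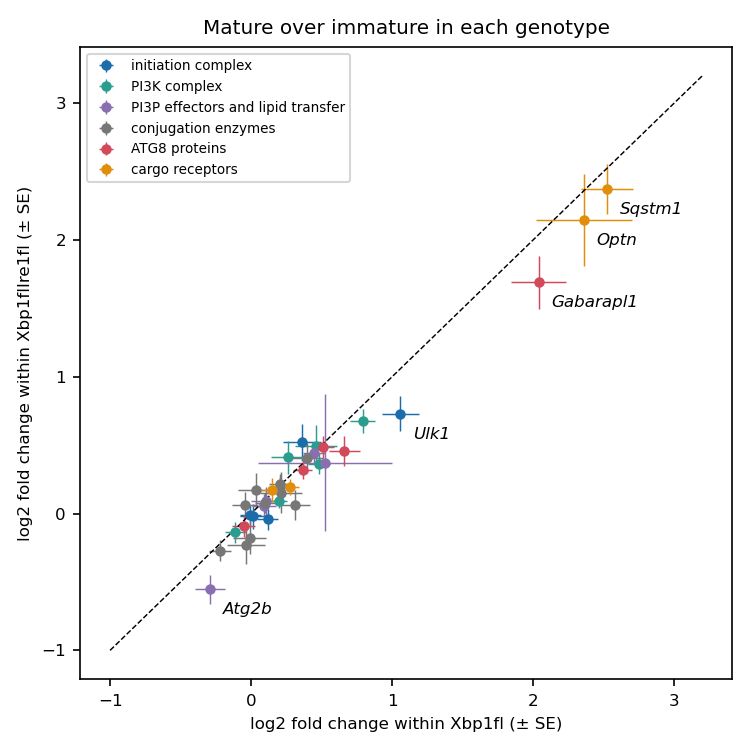
Log2 fold change of each member, mature over immature, within Xbp1flIre1fl (vertical) against within Xbp1fl mice (horizontal), with bars of 1 SE, coloured by role. The dashed line marks equal change, with Sqstm1, Optn and Gabarapl1 at the top right.

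Genes that regulate the machinery or act with it, from lists of related pathways, moved in both directions. Of 76 tested among 81 listed, 36 rose and 16 fell, and 68.4% were called, against 67.6% of all genes tested. Among 20 genes of mTORC1, the kinase complex that holds ULK1 in check when nutrients are plentiful, and of its nutrient sensing, 8 rose and 6 fell. Rragd, a Rag GTPase that is a known TFEB target, was at 18.7 ± 6.85 CPM in mature, against 0.577 ± 0.447 CPM in immature libraries (log2 fold change 5.01 ± 0.38, edgeR adjusted p = 1.81e-08), with the lowest immature library at 0.116 CPM, under the level of 3 counts. Rptor, the Raptor subunit, rose by 1.59 ± 0.11 on the log2 scale, Deptor, an mTOR inhibitor, changed by -0.81 ± 0.10, and Rheb, the GTPase that activates the complex, did not pass. Of 6 tested genes of AMPK, the energy sensor that activates ULK1, and its upstream kinase, 0 rose and 2 fell (Prkag2 at -0.45 ± 0.08 and Prkab2 at -0.23 ± 0.08).

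Of 7 tested transcription factor genes of the pathway 5 rose and 0 fell. Tfe3 and Tfeb, which drive lysosomal and autophagy genes, averaged 132 ± 17.5 and 109.7 ± 15.7 CPM in mature libraries, against 69.7 ± 4.06 and 64.0 ± 4.48 CPM in immature libraries. Their log2 fold changes were 0.92 ± 0.07 and 0.78 ± 0.08 (edgeR adjusted p = 4.91e-09 and 6.21e-08). Nfe2l2, which encodes the stress factor NRF2 whose repressor KEAP1 binds p62, changed by 1.33 ± 0.14 (adjusted p = 7.60e-07). None of these 3 overlapped between the stages.

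Of 12 other autophagosome formation genes 7 rose and 2 fell. Zfyve1, which encodes the omegasome marker DFCP1, changed by 1.89 ± 0.11, Nrbf2, a subunit of the ATG14 complex, by 1.05 ± 0.09, and Rubcn, which encodes the UVRAG complex inhibitor Rubicon, by 1.57 ± 0.11. Of 12 tested fusion genes 5 rose and 3 fell: Vps39, of the HOPS tether, rose by 1.63 ± 0.12 on the log2 scale, while Stx17, the autophagosomal SNARE, fell by 0.54 on the log2 scale. Of 19 tested genes of other receptors and related factors 11 rose and 3 fell. The rises were led by the ferritin receptor Ncoa4 (366 ± 67.3 CPM in mature, 134 ± 12.9 CPM in immature libraries) and by Tbk1, the kinase of optineurin (65.2 ± 7.47 CPM in mature, 36.2 ± 2.34 CPM in immature libraries). With library sizes only, 5 mTORC1 genes rose and 10 fell, and 0 AMPK genes rose and 6 fell. In the same fit 3 transcription factors rose and 0 fell, and 4 formation genes rose and 5 fell. Of the fusion genes 3 rose and 7 fell, and of the receptors and related factors 7 rose and 7 fell. These counts stand beside the 22.7% of all genes that rose and the 50.9% that fell with that scaling.

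Several members share exon sequence with a neighbour, and the strandedness of the counting is not given in the sources used here, so reads of the pair cannot be told apart there. Becn1 shares 43.9% of its exon bases with Cntd1 on the opposite strand, Atg9a 31.8% with Gm29253 on the same strand, Gabarapl1 28.3% with 1700101I11Rik, Atg4d 19.3% with Kri1, Uvrag 17.6% with Gm45187 and Sqstm1 17.3% with Mrnip, these 4 on opposite strands. Over all 16 libraries the partner of Gabarapl1 had 34 counts, Cntd1 231 and Kri1 2516. Mrnip and Gm29253 had no row of that symbol in the counts table. On mm10, Sqstm1 spans chromosome 11 from 50199366 to 50210827 and Gabarapl1 chromosome 6 from 129533160 to 129542346. Optn spans chromosome 2 from 5020642 to 5064051, and Ulk1 chromosome 5 from 110784488 to 110810097.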

How the data were processed

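RNA was extracted with a column kit for small samples from sorted cells, and libraries followed Illumina's standard protocol, per the labels' protocols. Reads were handled with TopHat2 2.1.0 (mm10), Trimmomatic 0.35, SAMtools 0.1.19, FastQC 0.11.4 and limma 3.42.2, per the submitters' processing notes; the read counter, annotation and strand setting are not given in the sources used here. The authors deposited raw counts per gene symbol and a table of log2 values for 11843 genes, whose normalization is not given, used here as an alternative. The tests used edgeR 4.0.16 (R 4.3.3): filterByExpr kept 11978 genes, libraries were scaled by TMM, and a robust quasi-likelihood model with group means took in all 16 libraries (12 residual degrees of freedom). Genes were called at a Benjamini-Hochberg adjusted p under 0.05 over all genes tested. SEs are the absolute log2 fold change over the square root of F. The model was tested on simulated data. Per-length levels divide CPM by the merged exons of basic protein-coding GENCODE M21 transcripts. The 3-count floor was 0.161 to 0.231 CPM and covers counting error only.

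The members, the gene lists and the tests were chosen with earlier results of these data known. All 36 members are named; of each pathway list, the 3 genes with the smallest adjusted p and the most abundant per length could be named; of the markers, Ccr7 and Xcr1 are named. Promoters were those of called members with the largest rise that hold a searched motif. By correlation, replicate numbers pair the samples within a genotype. Over 7881 genes, deviations of each mature library from its group mean were correlated with those of the genotype's immature libraries. The immature library of the same number always correlated best, at 0.255 to 0.513. The main tests did not use this pairing, which entered only as the replicate block. Across genotypes the mature libraries numbered 2 and 3 also correlated best with their own number (0.361 and 0.297), and the other 6 pairs did not (-0.112 to 0.058). No pair of libraries of a group agreed within sampling noise (chi-square per degree of freedom at least 5.23). The mature Xbp1flIre1fl libraries differed most, with pairs at 10.7 to 57.1, against at most 15.9 in the other groups. Alternatives were other scalings, no filter, DESeq2 1.42.0, a non-robust fit, the replicate block, limma 3.58.1 on the authors' log2 table, and leaving out each library.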

Additional observations from a re-analysis of the deposited data

Results flagged for a closer look

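Within groups of 4 libraries, 144 sets of values (36 members in 4 groups) were checked for 1 library far from the other 3. The limit was the 95% critical value of Dixon's ratio. Of the 144 sets 4 were flagged, a smaller share than the about 5% that chance gives. Atg101 was at 43.76 CPM in Xbp1fl Mature replicate 1, and at 35.98 to 36.99 CPM in the other 3 libraries of the group. Atg4b was at 31.56 CPM in Xbp1fl Mature replicate 2, and at 38.61 to 40.03 CPM in the others. Atg2a was at 84.18 CPM in Xbp1flIre1fl Mature replicate 1, and at 67.85 to 68.66 CPM in the others. Ambra1 was at 75.35 CPM in Xbp1fl Immature replicate 1, and at 72.05 to 72.55 CPM in the others. The calls of Atg2a and Ambra1 did not depend on these libraries: without any 1 library, their log2 fold changes were 0.40 to 0.46 and 0.39 to 0.45.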

How the results depend on the processing

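Of the members called with TMM, 8 did not hold their call under all 4 scalings, and 3 lost it in fits that left out 1 library. The cause was not tested. With library sizes only, members higher in mature cells numbered 13 and members lower 12 (20 and 3 with TMM), against 8 and 9 within Xbp1flIre1fl (17 and 2) and 9 and 7 within Xbp1fl (18 and 2); with upper quartiles 7 were lower, and 6 within Xbp1flIre1fl. Of all genes, 50.9% were lower with library sizes only (42.6% within Xbp1flIre1fl and 45.1% within Xbp1fl), and 43.7% with upper quartiles (35.3% within Xbp1flIre1fl). Members called lower with library sizes only but not with TMM were Ulk2, Atg13, Atg101, Wipi2, Atg4b, Atg7, Atg10, Atg16l2 and Gabarapl2. Of these, Atg13, Atg10, Atg16l2 and Gabarapl2 were also called lower with upper quartiles. Leaving out 1 library gave 18 to 20 members higher and 2 to 3 lower, within Xbp1flIre1fl 15 to 17 higher and 2 to 4 lower, and within Xbp1fl 15 to 18 higher and 0 to 2 lower. The interaction and genotype counts stayed at 0 in every alternative. With library sizes only the log2 fold change turned to -0.188 in Ulk2, -0.078 in Becn1, -0.15 in Wipi2, -0.126 in Atg9a, -0.216 in Atg4b, -0.12 in Atg4c, -0.038 in Atg4d, -0.024 in Atg5, -0.137 in Atg7, -0.017 in Atg12, -0.043 in Atg16l1 and -0.063 in Nbr1, and with upper quartiles to -0.083 in Ulk2, -0.045 in Wipi2, -0.023 in Atg9a, -0.113 in Atg4b, -0.017 in Atg4c and -0.033 in Atg7. Atg13 and Atg101 turned to 0.007 and 0.009 with RLE size factors and to 0.005 and 0.006 with DESeq2, Atg4b to -0.01 without a filter, and Atg101 to 0.0 without the 2 mature libraries of lowest Ccr7. Leaving out 1 library gave -0.038 to 0.011 for Atg13, -0.041 to 0.023 for Atg101 and -0.017 to 0.045 for Atg4b.

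Calls were lost without 1 library in 3 members. Pik3c3 kept its call only without Xbp1flIre1fl Mature replicate 1 or 4, Xbp1flIre1fl Immature replicate 2, Xbp1fl Mature replicate 2 or 4 or Xbp1fl Immature replicate 3 (otherwise adjusted p = 0.0541 to 0.0904). Atg4d kept its call only without Xbp1flIre1fl Mature replicate 2, Xbp1flIre1fl Immature replicate 3 or 4, or Xbp1fl Mature replicate 1 or 3 (otherwise 0.0527 to 0.102). Nbr1 lost its call without Xbp1flIre1fl Mature replicate 1 or 4, Xbp1flIre1fl Immature replicate 1 or 2, Xbp1fl Mature replicate 3 or 4 or Xbp1fl Immature replicate 1 or 4 (0.0549 to 0.0838). Without a filter Atg4d and Nbr1 lost their calls (0.0883 and 0.0611), as did Becn1, Atg4d, Atg5, Atg12 and Nbr1 with upper quartiles and these 5, Pik3r4 and Tax1bp1 with library sizes only. The replicate block gave 20 higher and 2 lower, with Pik3c3 the 1 call lost. Of 900 alternative values of single members, 802 kept direction and call. Depth limits Wipi1 most, with as few as 4 counts in a library.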
